A study of Mus musculus with 2 samples.

Results

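Imprinted genes are expressed mainly or wholly from the copy inherited from 1 parent, and many of them set the growth of the embryo or act in neurons. The 10 genes described here, Igf2, H19, Meg3, Peg3, Mest, Dlk1, Cdkn1c, Ndn, Snrpn and Kcnq1ot1, were found by their symbols among the 55416 genes and other annotated features counted in single nuclei of whole fetal mouse brain, and each symbol matched 1 feature. They were measured in 1 library from wildtype brain and 1 library from brain of Cav1 knockout mice, in which the gene for caveolin 1, a coat protein of small pits of the plasma membrane, had been targeted. The labels give the tissue as whole brain and the age as fetal for both libraries, and they name no strain, gestational day, sex or number of animals. With 1 library per genotype no difference between the genotypes has a replicate check, and no test was possible. All intervals below are 95% intervals and cover counting error alone, not the variation between animals.

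Imprinting works by domains, in which a control region that carries DNA methylation on 1 parental copy sets which genes of its neighbourhood are read from each chromosome. A long noncoding RNA is often read from the opposite parental copy to the protein-coding growth genes beside it. Among the members, 4 pairs belong to a shared domain or cluster. Igf2 encodes a growth factor read from the paternal copy, and H19 is the maternally expressed noncoding RNA 70.5 kb from it. Kcnq1ot1 is a paternally expressed noncoding RNA that silences neighbouring genes, among them Cdkn1c, which encodes the inhibitor of the cell cycle p57. Dlk1, a paternally expressed gene for a transmembrane protein of the Notch ligand family, lies 77.6 kb from Meg3, a maternally expressed noncoding RNA. Snrpn, for a protein of the splicing machinery, and Ndn, for the neuronal growth suppressor necdin, are paternally expressed genes of the region of the Prader-Willi syndrome. Peg3, for a zinc-finger protein, and Mest, for a protein of the hydrolase family, are paternally expressed genes of domains of their own.

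In the GENCODE M39 annotation of the GRCm39 build, 7 of the 10 genes are on chromosome 7, and 3 of the 10 are noncoding. H19 is at chr7:142129262-142133957 and Igf2 at chr7:142204503-142220694, both on the minus strand. Kcnq1ot1 is at chr7:142731402-142850327 and Cdkn1c at chr7:143012069-143014806, both on the minus strand. Snrpn is at chr7:59630427-59820763 on the minus strand, Ndn at chr7:61995473-62000010 on the plus strand and Peg3 at chr7:6706882-6733468 on the minus strand. Dlk1 is at chr12:109418749-109429262, Meg3 at chr12:109506877-109538165 and Mest at chr6:30723546-30752058, all on the plus strand.

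The starts of Meg3 and Kcnq1ot1 are shown because Meg3 gave most of the members' UMIs and Kcnq1ot1 had the most even levels between the libraries of the members with at least 100 UMIs, and because both are known to start at or near a region with methylation on 1 parental copy. The windows, each of 300 bases and read 5′ to 3′ on the strand of the gene, come from RefSeq on the GRCm38.p6 build, where the first Meg3 window is chr12:109540746-109541045 on the plus strand and the Kcnq1ot1 window chr7:143296498-143296797 on the minus strand. Capitals mark TGCCGC or its reverse complement GCGGCA, the core of the motif bound, when methylated, by ZFP57, a protein that keeps imprints.
Meg3: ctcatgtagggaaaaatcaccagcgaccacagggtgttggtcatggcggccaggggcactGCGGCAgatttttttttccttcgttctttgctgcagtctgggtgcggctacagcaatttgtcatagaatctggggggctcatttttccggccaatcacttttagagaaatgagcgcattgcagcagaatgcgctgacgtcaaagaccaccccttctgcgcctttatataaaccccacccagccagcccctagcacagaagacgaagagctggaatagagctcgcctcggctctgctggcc
Kcnq1ot1: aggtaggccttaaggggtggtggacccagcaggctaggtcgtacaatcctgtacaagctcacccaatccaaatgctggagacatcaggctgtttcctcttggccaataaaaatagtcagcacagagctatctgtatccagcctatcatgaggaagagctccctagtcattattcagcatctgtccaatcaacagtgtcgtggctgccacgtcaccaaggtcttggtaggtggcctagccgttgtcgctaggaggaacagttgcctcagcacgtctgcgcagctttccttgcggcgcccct
The Meg3 window held 1 match and 13 CG dinucleotides, and the Kcnq1ot1 window held 0 matches and 9 CG dinucleotides. Of 32851 such windows of mouse genes, 11.6% held the motif on either strand, and the median window held 7 CG dinucleotides. RefSeq windows were found for 8 of the 10 members, 17 windows in all, and 5 of them, from Igf2, Meg3, Mest and Snrpn, held a match; 2 of these 5 are overlapping windows of Mest. H19 and Cdkn1c had no entry. A match describes the letters and is not a measured site.

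The wildtype-labelled library held 9763 barcodes with 19048835 UMIs (unique molecular identifiers, each standing for 1 captured RNA molecule), and the knockout-labelled library 10811 barcodes with 22504908 UMIs. Nuclei with at least 500 genes and at most 5% mitochondrial UMIs were kept, 6686 and 6680 of them, with a median of 2134 and 2366 UMIs. The libraries shared 43 barcodes, 10 of them among kept nuclei. The label was checked first. Cav1 had 71 UMIs with the wildtype label and 80 with the knockout label, so the total count of the targeted gene was not lower under the knockout label. In vascular nuclei, where caveolin 1 is known to be abundant, it had 18 and 1 UMIs, and in neuron nuclei 9 and 40. The neighbouring gene Cav2 had 19 and 764 UMIs. The libraries are therefore called by their labels throughout. Levels are UMIs per 1000000 UMIs of the sum concerned (CPM). Wherever a pair of values is given without a library, the wildtype-labelled value stands first and the knockout-labelled value second.

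Nuclei were grouped by clusters named from marker genes, with the members left out of the genes that shaped the clusters. Vascular nuclei (endothelial-like and mural-like) numbered 81 and 104. Meningeal nuclei, which were fibroblast-like, numbered 108 and 110, progenitor nuclei 1305 and 1113, and neuron nuclei 4163 and 4010. Markers fitted the names: the 10 fibroblast markers summed to 3860 and 4238 CPM in meningeal nuclei against 51.6 and 40.9 CPM in neuron nuclei, and the 10 endothelial markers to 3776 and 5277 CPM in vascular nuclei against 39.4 and 42.4 CPM in neuron nuclei. The 11 general neuron markers summed to 2374 and 2561 CPM in vascular nuclei and 1763 and 1868 CPM in meningeal nuclei, against 5630 and 5587 CPM in neuron nuclei. The 10 markers of radial glia, a progenitor class, summed to 1949 and 2069 CPM in meningeal nuclei and 1099 and 1017 CPM in vascular nuclei. In progenitor nuclei these summed to 2902 and 3118 CPM, and the general neuron markers to 2581 and 2523 CPM. Neuron and radial glia markers were thus counted in the sums of both small groups, and neuron markers also in those of progenitor nuclei. Their part in the members' levels in these groups was not tested.

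Meningeal nuclei stood out for H19, Cdkn1c and Kcnq1ot1, and neuron nuclei for Snrpn. Of the 9 members with at least 100 UMIs in the comparison, these 3 were 2-fold or more higher in meningeal than in neuron nuclei in both libraries, where 8.95% of 13814 genes were, and Snrpn was the 1 member that was 2-fold or more lower, where 11.0% of genes were. The tenth member, Igf2, had too few UMIs to count. Against neuron nuclei, vascular nuclei were higher by that rule for H19 and Mest (background 8.25%) and lower for 0 members (background 7.55%). Progenitor nuclei were lower for Meg3 and Snrpn (background 10.3%) and higher for 0 members (background 10.3%). Of the 7 members with enough UMIs in vascular and meningeal nuclei, H19, Cdkn1c and Peg3 were lower in vascular nuclei (background 5.89%), and 0 were higher (background 6.20%). The plot of levels by group of nuclei shows all 10 genes.

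**Figure D1:**
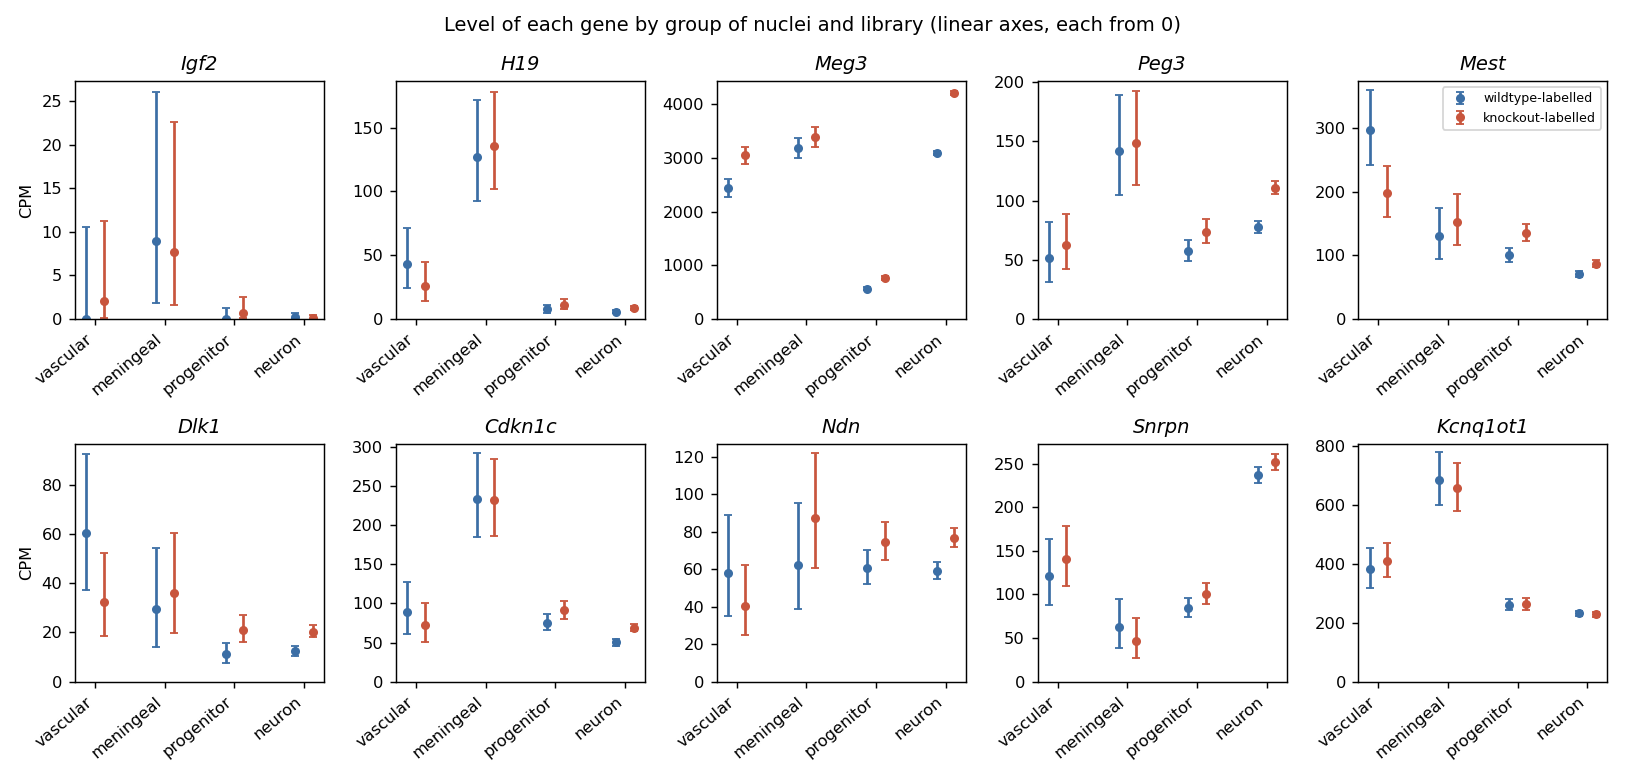
Level of each gene in CPM (linear axes, each from 0) in vascular, meningeal, progenitor and neuron nuclei of the wildtype-labelled and knockout-labelled library; points are sums over nuclei and bars 95% Poisson intervals. H19, Cdkn1c and Kcnq1ot1 were highest in meningeal nuclei of both libraries, Snrpn in neuron nuclei and Mest in vascular nuclei, while Igf2 rests on 13 UMIs in all.

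Igf2 was nearly undetected. It had 6 and 7 UMIs, which is 0.349 CPM (0.128 to 0.759) and 0.352 CPM (0.142 to 0.726), and the log2 ratio between the libraries could lie anywhere from -1.78 to 1.86. Of these, 3 UMIs in each library came from meningeal nuclei, each from a different nucleus. Vascular nuclei had 0 and 1 UMIs, progenitor nuclei 0 and 2, and neuron nuclei 2 and 1. These counts per group are at or under the 3 UMIs that a count of 0 allows, so no fold between groups is given. In the annotation, 58.4% of the exonic bases of Igf2 also belong to Gm49394, a gene on the same strand that spans it, and Gm49394 itself was listed at 0 UMIs in kept nuclei of both libraries. Whether reads in these shared exons were dropped by the counting was not tested. The 5 genes most like Igf2 over 28 sums (14 classes of nuclei in each library) were Col13a1 (Pearson r 0.854), Col6a1 (0.851), Prdm6 (0.828), Serpinf1 (0.790) and Aldh1a2 (0.784). Since Igf2 had a UMI in 8 of these 28 sums, the likeness is a description of sparse counts.

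H19, in contrast, was readily seen in meningeal nuclei. Its level there was 127 CPM (92.2 to 172) and 136 CPM (102 to 178). In neuron nuclei it was 5.73 CPM (4.41 to 7.32) and 8.33 CPM (6.83 to 10.1), and in progenitor nuclei 7.43 and 11.3 CPM. The meningeal level was thus 22.2-fold and 16.4-fold that of neuron nuclei, with intervals of the log2 ratio of 3.88 to 5.05 and 3.53 to 4.52. At least 1 H19 UMI was found in 25 of 108 and 34 of 110 meningeal nuclei, against 63 of 4163 and 101 of 4010 neuron nuclei, at median depths of 2474 and 3009 UMIs against 2318 and 2688. With each nucleus thinned to 1000 UMIs, which left out 3 and 2 meningeal nuclei, the shares were 12.4% (6.76 to 20.2) and 14.8% (8.71 to 22.9) of meningeal and 0.530% and 1.14% of neuron nuclei.

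The vascular level of H19 rested on few nuclei. It was 43.3 and 26.2 CPM, from 15 and 13 UMIs. A single endothelial-like nucleus held 7 of the 15, and without the nucleus with most UMIs the levels were 23.5 and 18.5 CPM. The 10 fibroblast markers, all detected, summed to 395 and 165 CPM in vascular nuclei, and their part in the vascular H19 level was not tested. Without the nuclei of the highest doublet scores, the wildtype-labelled vascular level was 1.06 on the log2 scale above the neuron level, against 2.92 with them. The genes most like H19 over the 28 sums were Fhl2 (r 0.801), Vtn (0.799), Plat (0.796), Col6a3 (0.790) and Tm4sf1 (0.780), a target added after the data were seen.

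Among the 4 groups, Cdkn1c was also highest in meningeal nuclei. Its level was 234 CPM (185 to 292) and 232 CPM (186 to 285) in meningeal nuclei, 89.4 and 72.6 CPM in vascular nuclei, 75.3 and 91.0 CPM in progenitor nuclei and 50.1 and 68.7 CPM in neuron nuclei. The intervals of vascular and progenitor nuclei overlapped in both libraries. Meningeal nuclei were 4.67-fold and 3.37-fold above neuron nuclei. Among progenitors, radial glia-like nuclei had 140 and 130 CPM, intermediate progenitor-like nuclei 82.5 and 90.4 CPM and dividing nuclei 53.2 and 68.5 CPM. Dividing nuclei were thus the lowest of these 3 classes, but neuron nuclei, at 50.1 and 68.7 CPM, were at a similar level. The dividing clusters had 51.1 and 52.7 CPM and 57.0 and 87.4 CPM. Whether the level of Cdkn1c follows cell division was not tested. The intervals of dividing nuclei, 43.2 to 64.6 and 56.0 to 82.9 CPM, lay below those of radial glia-like nuclei and overlapped those of intermediate progenitor-like nuclei. Choroid plexus-like nuclei had 122 and 96.9 CPM from 22 and 19 UMIs. In meningeal nuclei, 14 of the 25 and 19 of the 34 nuclei with an H19 UMI also had a Cdkn1c UMI; 49 of 108 and 48 of 110 of all meningeal nuclei had one. The genes most like Cdkn1c over the 28 sums, again a target added later, were Bmp6 (r 0.826), Slc4a4 (0.825), Glis3 (0.793), Plekhh2 (0.781) and Mrc2 (0.781).

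Kcnq1ot1, of the same domain, had its highest level among the 4 groups in the same nuclei. It reached 684 CPM (599 to 779) and 656 CPM (578 to 742) in meningeal nuclei, 381 and 410 CPM in vascular nuclei, 261 and 262 CPM in progenitor nuclei and 232 and 229 CPM in neuron nuclei. Meningeal nuclei were 2.95-fold and 2.87-fold above neuron nuclei. Progenitor and neuron nuclei were close, with a log2 ratio of 0.17 (0.05 to 0.28) and 0.20 (0.08 to 0.32). Among the other classes, choroid plexus-like nuclei had 538 and 424 CPM, radial glia-like nuclei 486 and 409 CPM, endothelial-like nuclei 417 and 463 CPM and Cajal Retzius-like nuclei, named for an early-born neuron of the cortical surface, 317 and 542 CPM. The order of these 4 classes differed between the libraries. Dividing nuclei had 174 and 168 CPM, from unlike clusters with 231 and 200 CPM and with 66.3 and 130 CPM. Forebrain inhibitory neuron-like nuclei had 149 and 136 CPM. The gene on the opposite strand, Kcnq1, had 78 and 110 UMIs in all kept nuclei against 4271 and 4842 of Kcnq1ot1.

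Meg3 was the most abundant member. It gave 42686 of 55835 member UMIs (76.5%) and 69477 of 86767 (80.1%). Per kilobase of annotated gene it had 79.3 and 112 CPM, against 24.3 and 30.2 for Cdkn1c, the next by this scale. The level of Meg3 by class is shown in the plot for that gene. Among the named classes it was highest in other inhibitory neuron-like nuclei, with 6658 CPM (6555 to 6762) and 7185 CPM (7108 to 7263). This class was named by inhibitory markers outside the Dlx-marked forebrain group. That class is 1 cluster, and its name rests on 4 of 8 markers. The gene most raised in it over the other clusters was Sim1, which is not among those markers. Another cluster, of 223 and 145 nuclei, passed 6 of the 8 markers. It stayed unnamed because its most raised genes included Otx2, a choroid plexus marker. Meg3 had 2002 and 2008 CPM in that cluster, so the high level was not shared by all nuclei with these markers.

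Mural-like nuclei, of the cells around small vessels, were next with 5418 and 5611 CPM of Meg3 from 33 and 40 nuclei, and every one of these nuclei held a Meg3 UMI. Other excitatory neuron-like nuclei had 4201 and 4345 CPM and meningeal nuclei 3182 and 3383 CPM. Forebrain inhibitory neuron-like nuclei had 1520 and 1622 CPM and cortical excitatory neuron-like nuclei 1008 and 1188 CPM. Neurons thus spanned a wide range. Among the classes, the lowest levels were in dividing nuclei, 345 and 525 CPM, and intermediate progenitor-like nuclei, 307 and 271 CPM. Radial glia-like nuclei had 1446 and 1394 CPM. The clusters of cortical excitatory neuron-like nuclei were unlike, with 154 and 207, 392 and 409, 1637 and 2062, and 1865 and 2010 CPM. The lowest of these, with 562 and 408 nuclei, was thus below the dividing and intermediate progenitor-like classes in both libraries. Progenitor nuclei as a group, at 560 and 761 CPM, were at 0.181 times the level of neuron nuclei in each library.

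**Figure D2:**
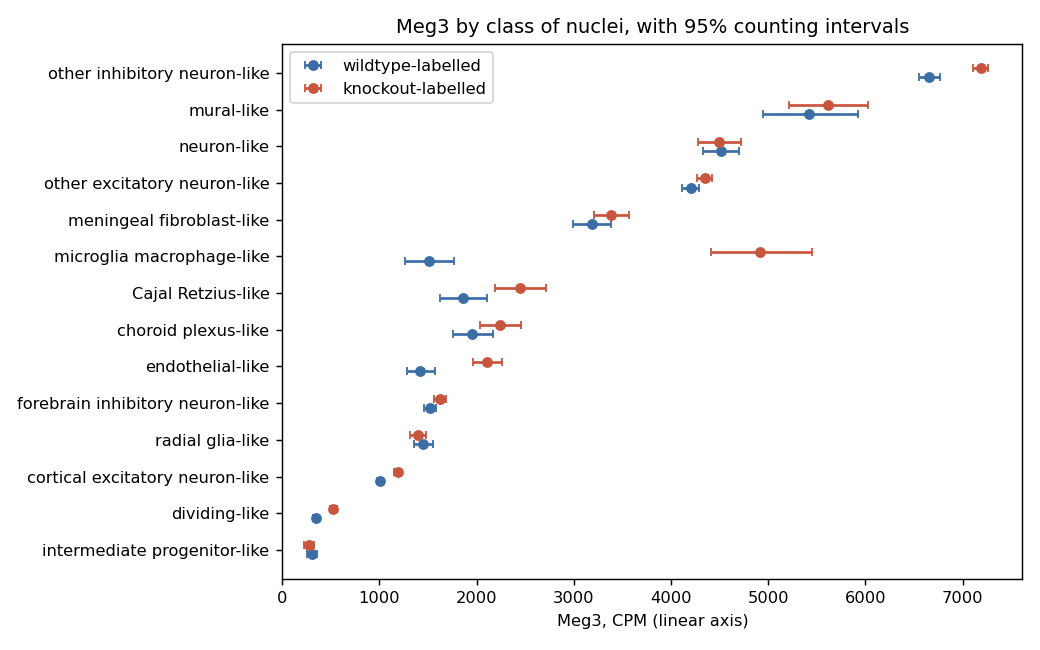
Meg3 level in CPM (linear axis from 0) for 14 classes of nuclei in the wildtype-labelled and knockout-labelled library, with 95% Poisson intervals. Other inhibitory neuron-like nuclei were highest at 6658 and 7185 CPM and intermediate progenitor-like nuclei lowest at 307 and 271 CPM, and microglia-like nuclei, 25 and 15 in number, differed most between the libraries.

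In microglia-like nuclei Meg3 had 1505 and 4912 CPM. Those sums came from 9 of 25 and 5 of 15 nuclei, and 1 nucleus gave 41.3% and 47.6% of the UMIs. Without that nucleus the levels were 1013 and 3362 CPM. The 11 general neuron markers were all detected in these nuclei of both libraries and summed to 2936 and 3145 CPM; their part in the Meg3 level was not tested.

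The 5 genes most like Meg3 over the 28 sums, among 15528 candidates, were Rian (r 0.930), Rtl1 (0.927), Prickle2 (0.895), Mirg (0.879) and Parp8 (0.859). Rian, Rtl1 and Mirg are genes of the Dlk1-Meg3 domain. Rian and Mirg are maternally expressed noncoding RNAs read in the same direction as Meg3, and Rtl1 is a paternally expressed gene for a protein derived from a retrotransposon. The 28 sums share their libraries, and each holds nuclei of a different depth, so these values describe likeness alone.

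Dlk1, the protein-coding neighbour, was far less abundant. Its r with Meg3 over the 28 sums was 0.43. With the other members of at least 100 UMIs, r ranged from -0.11 for Kcnq1ot1 to 0.42 for Cdkn1c, so the likeness was not particular to Meg3. Dlk1 had 219 and 449 UMIs. Mural-like nuclei had 240 CPM from 21 UMIs and 75.4 CPM from 10 UMIs, with a UMI in 14 of 33 and 6 of 40 nuclei. In the knockout-labelled library a single mural-like nucleus gave 5 of the 10 UMIs, and without the nucleus with most UMIs the mural-like levels were 201 and 40.7 CPM. Endothelial-like nuclei had 0 and 6 UMIs, so the vascular level of Dlk1, 60.6 and 32.3 CPM, came mainly from mural-like nuclei. Other inhibitory neuron-like nuclei had 34.5 and 36.6 CPM, and cortical excitatory neuron-like nuclei 2.54 and 4.16 CPM. The unnamed cluster that passed 6 markers of the other inhibitory class had 2 and 0 Dlk1 UMIs.

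Snrpn had its highest level among the 4 groups in neuron nuclei. It had 237 CPM (228 to 246) and 252 CPM (243 to 261) in neuron nuclei, 121 and 141 CPM in vascular nuclei, 84.8 and 101 CPM in progenitor nuclei and 62.2 and 46.3 CPM in meningeal nuclei. A single vascular nucleus held 13 of the 42 UMIs in the wildtype-labelled library, and another held 11 of the 70 in the knockout-labelled one. With nuclei thinned to 1000 UMIs, 0 of 77 and 14 of 98 vascular nuclei had a Snrpn UMI, against 7.57% and 10.2% of progenitor nuclei. Progenitor nuclei were at 0.359 and 0.401 times the neuron level, and meningeal nuclei at 0.263 and 0.184 times. Within neurons, the other excitatory class had 329 and 325 CPM, the other inhibitory class 295 and 275 CPM, the forebrain inhibitory class 259 and 275 CPM and the cortical excitatory class 152 and 155 CPM. Snrpn shares 13.3% of its exonic bases with Gm38393 on the same strand, which had 867 and 1138 UMIs, and 2.30% with Snurf, which had 0.

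Ndn, of the same chromosomal region, had similar levels in neuron, progenitor and meningeal nuclei. It had 59.0 CPM (54.6 to 63.7) and 76.8 CPM (72.0 to 81.7) in neuron nuclei, 60.8 and 74.4 CPM in progenitor nuclei, 62.2 and 87.5 CPM in meningeal nuclei and 57.7 and 40.4 CPM in vascular nuclei. The log2 ratio of progenitor to neuron nuclei was 0.04 (-0.20 to 0.28) and -0.04 (-0.27 to 0.17). Only the vascular nuclei of the knockout-labelled library, with 20 UMIs, lay below the neuron level by more than counting error, with a log2 ratio of -0.93 (-1.65 to -0.29).

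Peg3 had 142 CPM (105 to 189) and 149 CPM (113 to 193) in meningeal nuclei, 77.5 and 111 CPM in neuron nuclei, 57.1 and 73.7 CPM in progenitor nuclei and 51.9 and 62.6 CPM in vascular nuclei. The meningeal level was 1.83-fold and 1.34-fold that of neuron nuclei. Mest had its highest level among the 4 groups in vascular nuclei, with 297 CPM (242 to 360) and 198 CPM (161 to 241), against 70.6 and 87.1 CPM in neuron nuclei. Vascular nuclei were thus 4.21-fold and 2.27-fold above neuron nuclei for Mest. Endothelial-like nuclei had 313 and 234 CPM of it and mural-like nuclei 251 and 98.0 CPM, and 1 endothelial-like nucleus of the wildtype-labelled library held 18 of its 81 UMIs. In the annotation 47.7% of the exonic bases of Mest lie opposite exons of Copg2, which had 2341 and 3074 UMIs, and whether the counting used the strand is not given in the sources used here.

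Between the libraries, 8 of the 9 members with at least 100 UMIs had more CPM in the knockout-labelled one, 7 of them by less than 1.5-fold. The median log2 ratio of knockout-labelled to wildtype-labelled CPM over the 9 was 0.31, against -0.01 over 15528 genes. Dlk1 alone passed 1.5-fold upward, where 2.12% of genes did, and 0 members passed it downward, where 0.605% did. The 5th and 95th percentiles of all genes were -0.31 and 0.42, and 3 members, Dlk1, Peg3 and Meg3, lay above the higher one.

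Dlk1 had 12.7 CPM (11.1 to 14.5) and 22.6 CPM (20.5 to 24.8), which gives a log2 ratio of 0.83 (0.59 to 1.07). Peg3 had 75.0 CPM (70.9 to 79.2) and 106 CPM (102 to 111), and its ratio was 0.50 (0.40 to 0.60). Meg3 had 2481 CPM (2457 to 2505) and 3495 CPM (3469 to 3521), and its ratio was 0.49 (0.48 to 0.51). The intervals of the libraries did not overlap for these 3 genes. Part of the Dlk1 count came from an unnamed cluster of high UMI counts, with 7 and 66 UMIs from 104 and 164 nuclei; without that cluster the ratio was 0.70.

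Ndn had 64.8 and 82.7 CPM with a log2 ratio of 0.35 (0.24 to 0.46), and Cdkn1c 66.5 and 82.6 CPM with one of 0.31 (0.20 to 0.42). H19 had 11.5 and 13.9 CPM with a ratio of 0.27 (0.00 to 0.54), and Mest 84.3 and 99.1 CPM with one of 0.23 (0.14 to 0.33). Snrpn had 201 and 219 CPM and a ratio of 0.12 (0.06 to 0.19). Kcnq1ot1 had 248 CPM (241 to 256) and 244 CPM (237 to 251) and a ratio of -0.03 (-0.09 to 0.03), and was the member closest to equal levels apart from Igf2. The domain partners thus had unlike ratios, with Cdkn1c above Kcnq1ot1 and Dlk1 above Meg3.

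**Figure D3:**
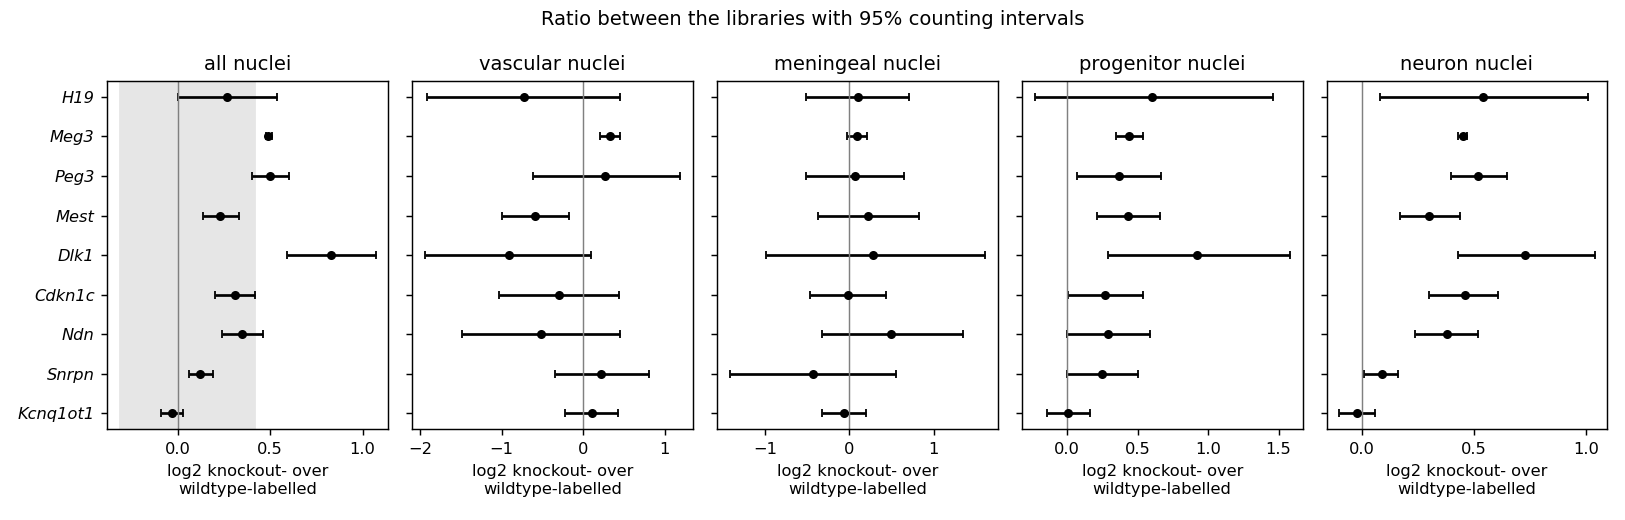
Log2 ratio of knockout-labelled to wildtype-labelled CPM for 9 members in all kept nuclei and in 4 groups of nuclei (each panel has its own linear axis), with 95% counting intervals; a member is drawn where both libraries together had at least 20 UMIs, and the grey band in the first panel spans the 5th to 95th percentile of all genes. Dlk1 at 0.83 is farthest to the right in all nuclei and Kcnq1ot1 at -0.03 is the leftmost.

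The libraries held different mixes of nuclei, and some pooled ratios moved when the mix was made equal. Other inhibitory neuron-like nuclei, the class highest in Meg3, were 9.72% and 16.7% of kept nuclei. When each cluster was given the weight it has in the wildtype-labelled library, the Meg3 log2 ratio was 0.18 in place of 0.49, Dlk1 was at 0.56, Peg3 at 0.37 and Snrpn at 0.03. Dlk1 is then under the 1.5-fold line. Ndn, at 0.37, Cdkn1c, at 0.29, H19, at 0.31, and Mest, at 0.14, stayed within the counting intervals of their pooled ratios, and Kcnq1ot1 was at -0.09. This weighting was added after the data were seen.

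**Figure D4:**
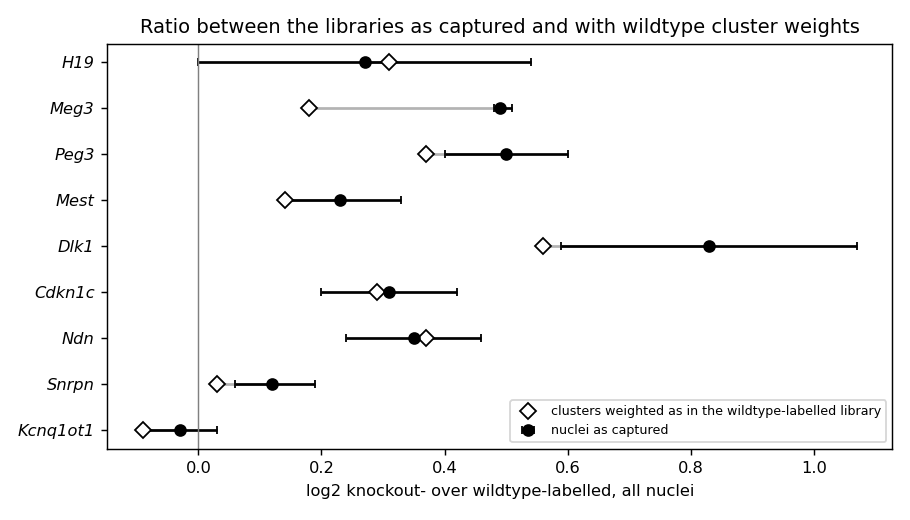
Log2 ratio of knockout-labelled to wildtype-labelled CPM over all kept nuclei for 9 members, with nuclei as captured (filled points, 95% counting intervals) and with every cluster weighted as in the wildtype-labelled library (open diamonds), on a linear axis. The shift is greatest for Meg3, from 0.49 to 0.18, and Dlk1, from 0.83 to 0.56.

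Within clusters the ratios were uneven. Meg3 had at least 50 UMIs in all 25 clusters and had more CPM with the knockout label in 20 of them and less in 3, with intervals above 0 in 14 and below 0 in 0. In its highest class, other inhibitory neuron-like nuclei, the ratio was 0.11 (0.08 to 0.14), and in radial glia-like nuclei, also 1 cluster, -0.05 (-0.18 to 0.07). Dividing nuclei as a class had a ratio of 0.61 (0.45 to 0.76), but their 2 clusters, with 531 and 337 nuclei and with 312 and 306 nuclei, had 0.25 (-0.04 to 0.53) and 0.47 (0.29 to 0.65), each below the class value. Ndn was higher in 17 of 17 clusters with 50 UMIs, with 5 intervals above 0. Cdkn1c was higher in 16 of 18, with 4 intervals above 0 and 0 below. Kcnq1ot1 was higher in 5 of 22 and lower in 17, with 2 intervals above 0 and 3 below. Clusters of 1 library share that library and are not replicates of a genotype.

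In neuron nuclei Dlk1 passed 1.5-fold upward (background 2.12%), with 12.3 CPM (10.3 to 14.5) and 20.4 CPM (18.0 to 23.0), and 0 members passed it downward (background 0.678%). Its ratio there was 0.73 (0.43 to 1.04). The mix of classes within neuron nuclei differed between the libraries. Other inhibitory neuron-like nuclei, 650 and 1113 in number, gave 83 of 137 and 170 of 262 Dlk1 UMIs of neuron nuclei. Their own Dlk1 ratio was 0.09 (-0.30 to 0.48). Forebrain inhibitory neuron-like nuclei, with 10 and 25 UMIs, had one of 1.43 (0.33 to 2.66). Peg3 had a ratio of 0.52 (0.40 to 0.65) in neuron nuclei, where forebrain inhibitory neuron-like nuclei had 62.4 and 130 CPM, a ratio of 1.05 (0.70 to 1.42), and other excitatory neuron-like nuclei 89.5 and 89.8 CPM. Cdkn1c had a ratio of 0.46 (0.30 to 0.61), with 52.7 and 92.6 CPM in other excitatory neuron-like nuclei. That class held different clusters in each library: a cluster of 19 and 115 nuclei with 213 and 296 CPM of Cdkn1c gave 11 of its 116 and 90 of its 264 UMIs, while its other clusters had 39.2 and 66.6 CPM and 64.5 and 72.0 CPM. The same small cluster had 852 and 470 CPM of Kcnq1ot1, from 44 and 143 UMIs. The Snrpn ratio in neuron nuclei was 0.09 (0.01 to 0.16).

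In progenitor nuclei 0 of the 7 members with 100 UMIs passed 1.5-fold in either direction (background 1.91% upward and 1.13% downward), and in meningeal nuclei 0 of 5 (background 3.68% in each direction). Dlk1, with 33 and 60 UMIs in progenitor nuclei, had a ratio of 0.92 (0.29 to 1.58) there but did not reach that UMI minimum. In vascular nuclei 0 of 4 members passed upward (background 5.16%), and Mest passed downward (background 3.02%), with 103 and 98 UMIs. Its ratio was -0.59, with an upper bound of -0.17, on the opposite side of 0 from neuron nuclei at 0.30 (0.17 to 0.44). Without the nucleus with most Mest UMIs in each library, the vascular levels were 252 and 202 CPM, which differ by less than 1.5-fold. Dlk1 was also lower in mural-like nuclei, at -1.67 (-2.92 to -0.52). These differences between groups of nuclei were not tested.

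Barcodes left out for having under 500 genes, 2969 and 3904 of them, held a different mix of the members. Ndn had 272 and 352 CPM there, 4.20-fold and 4.25-fold its level in kept nuclei. H19 had 46.3 and 59.0 CPM, 4.03-fold and 4.25-fold its level in kept nuclei, and Cdkn1c 240 and 312 CPM, 3.60-fold and 3.78-fold. These 3 of the 9 members with 100 UMIs were 2-fold or more higher in both libraries, where 14.8% of genes were.

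Meg3 and Kcnq1ot1 were 2-fold or more lower in those barcodes, where 37.8% of genes were. Meg3 had 258 and 312 CPM, and Kcnq1ot1 13.8 and 14.1 CPM, 0.0558 and 0.0579 times its level in kept nuclei. The nuclear noncoding RNA Malat1 had 6547 and 5213 CPM against 35279 and 40538 CPM in kept nuclei. For Ndn and Cdkn1c the ratio between the libraries was similar in these barcodes, at 0.37 (0.20 to 0.54) and 0.38 (0.20 to 0.56), to that in kept nuclei. An unnamed cluster among the kept nuclei had a similar mix. It held 632 and 974 nuclei, 9.45% and 14.6% of those kept, with a median of 717 UMIs and 11.0% of UMIs from ribosomal protein genes. Ndn had 270 and 344 CPM in it, Cdkn1c 275 and 308 CPM, which is above the meningeal level, and H19 68.0 and 77.1 CPM. Kcnq1ot1 had 18.7 and 22.6 CPM and Meg3 212 and 381 CPM there. The nuclei of this cluster are part of the sums over all kept nuclei and of none of the 4 groups, and the part of such RNA in the levels of kept nuclei was not tested.

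**Figure D5:**
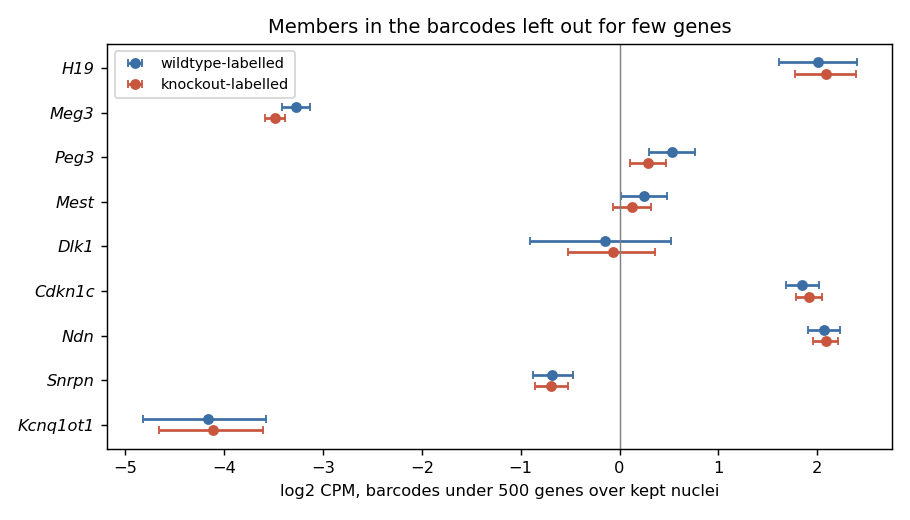
Log2 ratio of CPM in barcodes with under 500 genes to CPM in kept nuclei for 9 members in each library, with 95% counting intervals, on a linear axis. H19, Cdkn1c and Ndn lie between 1.85 and 2.09, and Meg3 and Kcnq1ot1 lie between -3.27 and -4.16.

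Over all kept nuclei, other imprinted genes also had a median ratio above that of all genes. Of 49 such genes in a list written from known imprinted loci, 39 had at least 100 UMIs, 5 had 1.5-fold or more higher CPM with the knockout label and 0 lower, beside the background of 2.12% and 0.605%, and the median log2 ratio was 0.18. The 5 were Magel2, a gene of the Prader-Willi region, with 11.6 and 21.1 CPM; Zim1, a zinc-finger gene beside Peg3, with 6.34 and 10.9 CPM; Peg10, derived from a retrotransposon, with 8.60 and 14.4 CPM; Kcnk9, for a potassium channel, with 3.37 and 5.58 CPM; and Nap1l5 with 11.9 and 18.4 CPM. Paternally and maternally expressed genes had the same median of 0.20 over 19 and 16 genes. The neighbours of Meg3 had ratios of 0.36 for Rian and Mirg and 0.34 for Rtl1. In vascular nuclei Rian had -0.35 (-0.69 to -0.02), Mirg -1.01 (-1.71 to -0.32) and Rtl1 -0.25 (-1.07 to 0.57). Mirg, with 45 and 32 UMIs there, and Rtl1, with 25 and 30, were under the minimum of 100 UMIs. Meg3 itself was on the other side of 0 in vascular nuclei, at 0.33 (0.20 to 0.45) from 843 and 1510 UMIs. The median of the list was 0.20 over 37 genes in neuron nuclei and 0.09 over 25 in progenitor nuclei. It was 0.05 over 11 genes in meningeal nuclei and -0.09 over 14 in vascular nuclei. Equal cluster weights were not applied to these genes, so the part of the mix of nuclei in their ratios was not tested. Without the nuclei of the highest doublet scores 3 genes passed in place of 5.

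Of these other imprinted genes, Nnat, for a small protein of the endoplasmic reticulum, had the highest level in neuron nuclei, at 1499 and 1607 CPM, followed by Ube3a, for a ubiquitin ligase, at 642 and 738 CPM, and Snhg14, the host of small nucleolar RNAs downstream of Snrpn, at 473 and 520 CPM. It was also highest in progenitor nuclei, at 1002 and 1195 CPM, ahead of Gnas, for the stimulatory G protein alpha subunit, at 445 and 485 CPM, and Ppp1r9a, for an actin-binding protein of neurons, at 382 and 425 CPM. In meningeal nuclei the order was Nnat, at 1126 and 1400 CPM, Gnas, at 930 and 913 CPM, and Airn, the noncoding RNA that silences Igf2r, at 838 and 780 CPM. In vascular nuclei Airn had 1093 and 876 CPM, Nnat 929 and 920 CPM and Gnas 1010 and 825 CPM. These are levels of each gene as counted and are not scaled by gene length.

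The partners of Igf2 in growth factor signalling had a median ratio close to that of all genes. Of 14 genes (Igf1, Igf1r, Insr, and genes for binding proteins of the growth factors, for receptor substrates and for RNA-binding proteins named after Igf2), 12 had at least 100 UMIs, 0 passed 1.5-fold in either direction (background 2.12% and 0.605%), and the median log2 ratio was -0.05. Igf1r, the receptor for both insulin-like growth factors, had the highest level of the list in each of the 4 groups, with 466 and 450 CPM in neuron nuclei, 524 and 518 CPM in progenitor nuclei, 587 and 576 CPM in meningeal nuclei and 764 and 868 CPM in vascular nuclei. Igfbp2, for a binding protein, had 302 and 365 CPM in meningeal nuclei, and Igf2bp2, for an RNA-binding protein named for its binding of Igf2 RNA, 258 and 201 CPM. Insr, for the insulin receptor, had 317 and 339 CPM in vascular nuclei, where Igf2bp3 had 242 and 192 CPM, and 159 and 138 CPM in progenitor and 134 and 131 CPM in neuron nuclei. Igf2bp3 had 261 and 272 CPM in progenitor and 218 and 202 CPM in neuron nuclei. Igf1r was thus counted in each of the 4 groups, while its ligand Igf2 had at most 3 UMIs in any of them in either library.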

How the data were processed

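Nuclei were isolated from frozen whole fetal brain and captured with 10x Genomics 3′ chemistry of version 3.1, per the labels' protocols. The authors deposited raw UMI counts per gene and barcode for each library. The submitters' processing notes name Cell Ranger 3.0.1, STAR and the build GRCm39, while the file headers name Cell Ranger 6.1.1; whether introns or strand were used in the counting is not given in the sources used here. Of the features, 54749 (98.8%) matched GENCODE M39 by identifier.

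Barcodes under 500 genes (2969, or 30.4%, and 3904, or 36.1%) or over 5% mitochondrial UMIs (108 and 227) were left out. Scrublet's automatic threshold marked 0 nuclei, so the caller had not worked and no doublets were removed; removing the top 8% of scores was an alternative. Counts of both libraries were scaled to 10000 per nucleus and clustered with scanpy 1.11.5 (2000 variable genes without the members, other imprinted genes, Cav1, mitochondrial and sex-linked genes; 30 components, 15 neighbours, Leiden resolution 1). The 25 clusters were named where at least 3 markers of a class were 2-fold above the other clusters and 1.5-fold within each library. Thresholds were set after the clusters were seen. Names were withheld where the most raised genes held more markers of another class, and in clusters of low UMI counts whose most raised genes held no marker of their own class. Erythroid names needed 50% haemoglobin UMIs, and clusters with markers of 5 or more classes stayed unnamed. Other clusters were called neuron by at least 3 general neuron markers 2-fold above the named non-neuron clusters, without the rule within each library. Clusters over 3 times the median UMI count were not called neuron in this way. Names were rebuilt here, and an annotation by the authors was not used. Clusters left unnamed held 14.3% and 19.2% of nuclei.

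UMIs were summed per library and group. Intervals are exact Poisson for CPM, exact conditional binomial for ratios and exact Clopper-Pearson for shares, at 95%. Ratios and intervals were run on Poisson counts simulated for the real genes with known folds. The intervals assume that same model, and counts of single nuclei were not simulated. That run therefore checks the calculation alone and not how well the intervals cover the real counts. Likeness is Pearson's r of log2(CPM + 1). Named are all members, list genes past 1.5-fold between the libraries or among the 3 highest of a group, the 5 genes most like Igf2 and Meg3, and Cav1 and Cav2. The members and lists were chosen with earlier results of these data known.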

Additional observations from a re-analysis of the deposited data

Results flagged for a closer look

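Kcnq1ot1 differed between the libraries in opposite directions in 2 classes of nuclei. Its log2 ratio of knockout-labelled to wildtype-labelled CPM was 0.77 (0.20 to 1.37) in Cajal Retzius-like nuclei, with 317 and 542 CPM from 40 and 74 UMIs in 37 and 34 nuclei. In radial glia-like nuclei it was -0.25 (-0.48 to -0.02), with 486 and 409 CPM from 288 and 364 UMIs. Dividing nuclei as a class had a Kcnq1ot1 ratio of -0.05 (-0.29 to 0.19). Their cluster of 312 and 306 nuclei had 0.98 (0.44 to 1.53) from 43 and 91 UMIs, and their other cluster -0.21 (-0.49 to 0.07). Other members also had intervals on both sides of 0. Snrpn had -1.48 (-2.98 to -0.15) in Cajal Retzius-like nuclei, from 18 and 7 UMIs, and 0.49 (0.13 to 0.85) in dividing nuclei. Mest had -1.36 (-2.47 to -0.30) in mural-like nuclei, from 22 and 13 UMIs, and 0.64 (0.20 to 1.10) in radial glia-like nuclei. These differences between classes were not tested, and each class has 1 library per genotype.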

How the results depend on the processing

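No paired analysis was possible because each genotype has 1 library. Giving every cluster its weight in the wildtype-labelled library, an alternative added after the data were seen, moved the log2 ratio between the libraries over all nuclei to 0.18 for Meg3, 0.37 for Peg3, 0.56 for Dlk1 and 0.03 for Snrpn, and turned that of Snrpn in neuron nuclei from 0.09 to -0.01. Leaving out the cluster of high UMI counts, also added, moved Meg3 to 0.47. Removing the 8% of nuclei with the highest doublet scores left 3 other imprinted genes past 1.5-fold in place of 5, and moved 9 of 90 values within or between groups of nuclei, those of H19, Meg3, Dlk1 and Snrpn; the log2 ratio of H19 in vascular nuclei went from -0.72 to 1.09, on 11 UMIs. A minimum of 1000 genes moved 2 of 90 such values. CPM without Meg3, Malat1, mitochondrial, haemoglobin and ribosomal genes, and Leiden resolution 2, moved 0 of 90 each. Thinning to 2000 UMIs per nucleus moved 48 of 63 shares, as deeper nuclei show more genes. Depth limits Igf2, with 13 UMIs, and H19 and Dlk1 in vascular nuclei, with 28 and 37 UMIs in both libraries together.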
